A study of Mus musculus with 4 samples.

Results

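The 100 transcripts described here were the noncoding RNAs with the widest spread of signal over 4 mouse cell populations on the way from mesoderm to cardiomyocytes. They were taken from the names on the array that begin with NR_, the prefix that RefSeq, the curated transcript collection, gives to noncoding records. Of 33227 names on the array, 1256 were of this kind, and 850 of these were detected, which means that the scanner software called at least 0.5 of their spots well above background on 1 or more arrays. The 100 detected names with the largest range, the highest minus the lowest log2 signal, were kept, so the range of each is what chose it and is given as a description with no test. A RefSeq symbol was matched for 95 of the 100, and the other 5 are given by their accession.

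RNA was hybridized to 1-colour Agilent arrays, a single array for each population. Flk1+ mesodermal precursor cells (Flk1+ MPCs) were sorted at day 4.5 of the differentiation of mouse pluripotent stem cells without leukemia inhibitory factor. PCBs, PDGFRα+ cardioblasts, were collected at day 5.5 after treatment with CsAYTE, a mixture of Cyclosporin A, Trolox (an antioxidant), Y27632 (a blocker of ROCK) and EW7197 (a blocker of ALK5). Spontaneously formed PCBs (sfPCBs) were collected at the same day without CsAYTE, with DMSO as the vehicle. M+CMs, the αMHC+ cardiomyocytes, were sorted at day 10.5, and their label leaves out whether CsAYTE was present. The paper describes M+CMs as cardiomyocytes that differentiated from PCBs. The αMHC sort reads a GFP transgene driven by the cardiac αMHC promoter, and the labels give the cells only as embryonic stem cells. In the study, sorted MPCs were replated either on OP9 stromal feeder cells or on feeder-free dishes, and the labels do not say which was used for the arrays. The paper reports that mouse PCBs did not form without feeder cells. Kdr, which encodes Flk1, had its highest scaled signal in Flk1+ MPCs (47509), Pdgfra in PCBs (9136), and Myh6, which encodes αMHC, in M+CMs (112738). In sfPCBs, Pdgfra measured 3647, below its 7237 in Flk1+ MPCs, and Kdr measured 4719, above its 942 in PCBs. Because each value is from bulk RNA, fewer cells of a type and less RNA per cell cannot be told apart. All 4 arrays lay on 1 slide and were read in 1 scan. Because each population had 1 array, an error between cultures could not be estimated. The errors given here are the software's own errors of the spots.

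Noncoding RNAs work in several ways. Antisense and neighbouring transcripts can act on the gene across from or beside them, host transcripts are cut into microRNAs or small nucleolar RNAs, nuclear RNAs build bodies such as paraspeckles, and transcribed pseudogenes are copies of coding genes. Several are textbook markers of early development, among them the host of the miR-290 family in pluripotent cells, Fendrr in lateral mesoderm and Mhrt in heart muscle.

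By RefSeq class, 81 of the 100 were long noncoding RNAs, 10 were transcribed pseudogenes, 2 were noncoding records of coding genes (Runx2 and Bmp1), 1 was a small nuclear RNA, 1 was listed as another RNA and 5 were unmatched. Their median log2 range was 3.89, against 1.34 over the 850 detected noncoding names and 1.32 over 17919 detected coding names. A range as wide as that of the last member was found for 13% of all detected names, for 15.6% of coding names and, by construction, for 11.8% of noncoding names. The last 3 names inside the limit were Gm5334 (3.23), 4933406C10Rik (3.21) and Neat1 (3.19), and the first 3 outside were 1700042O10Rik (3.16), 1700060C20Rik (3.16) and Gm6277 (3.15). Many of the 100 were dim. They were well above background on 1 array for 23 names, on 2 arrays for 18, on 3 for 20 and on all 4 for 39. For 61 names the lowest array was not well above background, and there the size of the difference is only a lower bound. It is written as "at least", and was computed against the lowest detected signal of that array (between 15.1 and 15.9) or the name's own signal if higher.

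The highest array was that of M+CMs for 48 names (41.9% of all names on the array with as wide a range), sfPCBs for 21 (22.1%), Flk1+ MPCs for 19 (23%) and PCBs for 12 (13%). For 18 names the highest and the second highest arrays were within 2 software errors of each other, and none of these was highest in M+CMs. Names that stood at least 2-fold above the other 3 arrays numbered 43 in M+CMs (36.3% of all names with as wide a range), 11 in Flk1+ MPCs (13.4%), 10 in sfPCBs (10.5%) and 2 in PCBs (4.07%). The names were chosen by these same ranges, so nothing is read from the counts.

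**Figure D1:**
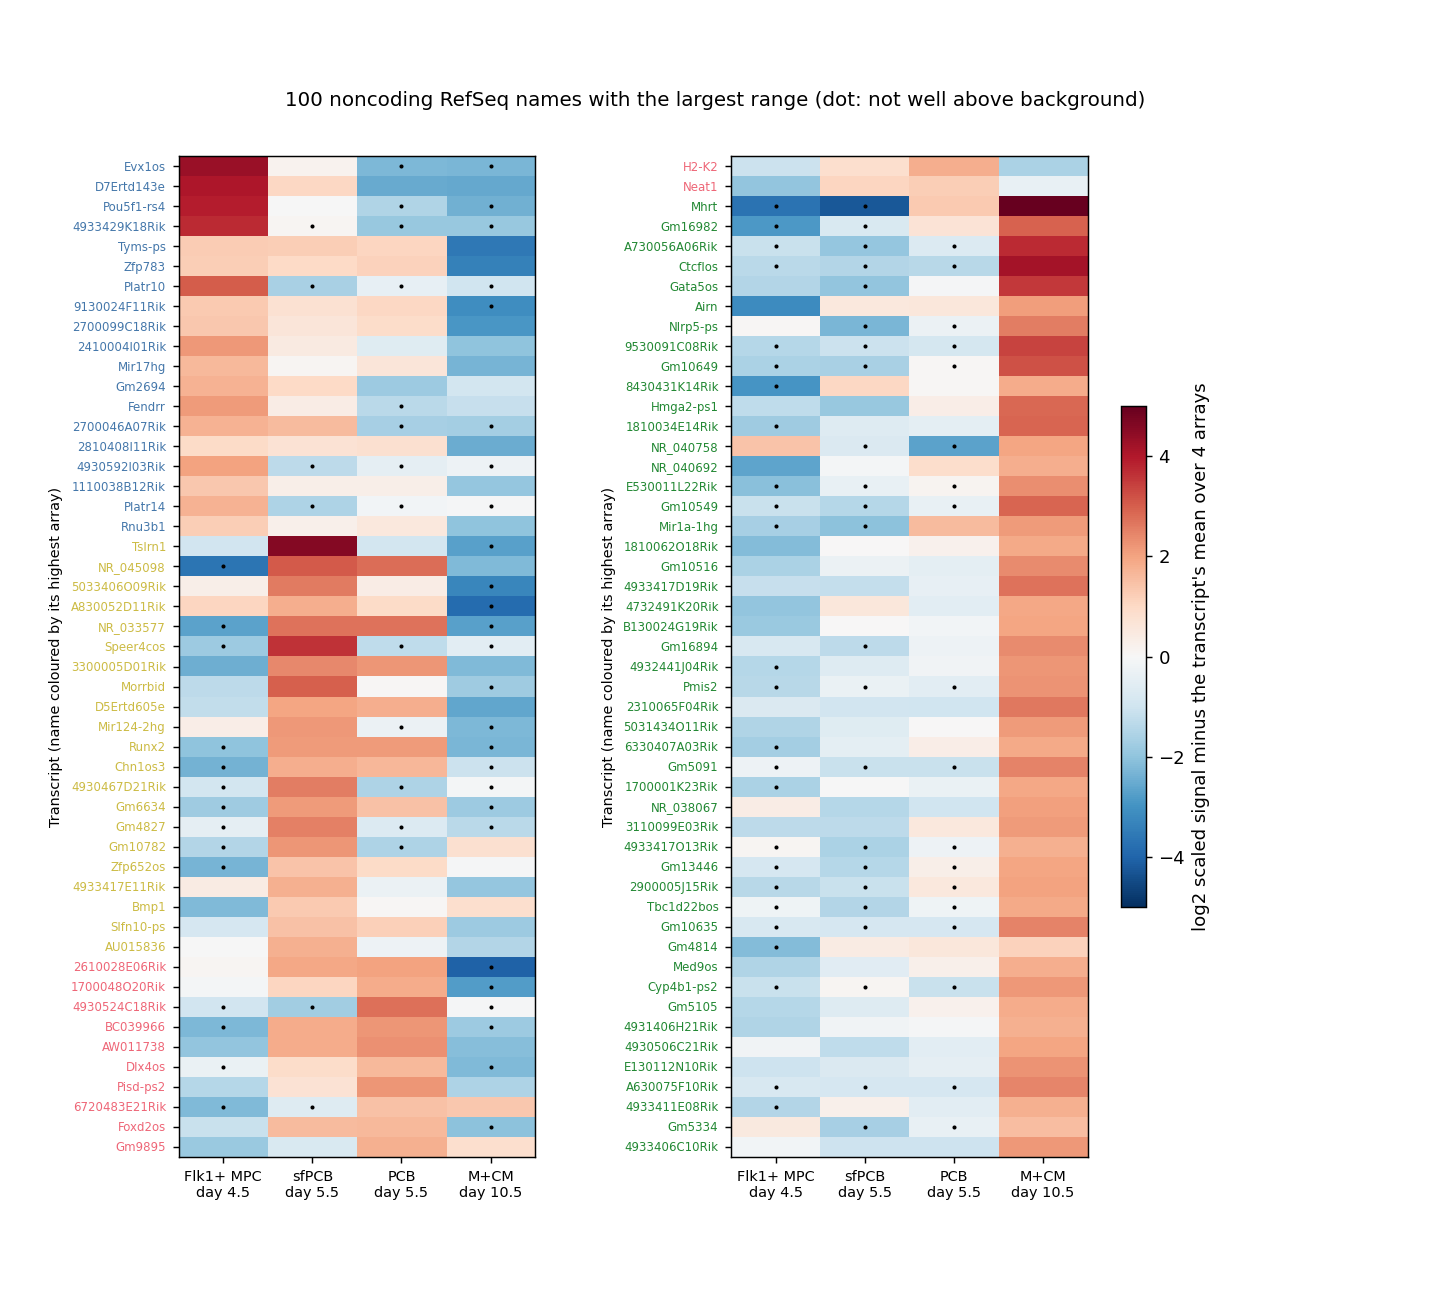
Each row is 1 of the 100 noncoding names and each column 1 array, and the colour gives the log2 scaled signal minus the mean of that name over the 4 arrays. Names are grouped by their highest array (19 in Flk1+ MPCs and 21 in sfPCBs, with 12 in PCBs and 48 in M+CMs), and a dot marks a signal that was not well above background.

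Host transcripts of microRNAs differed in which array was highest. MicroRNAs pair with target messages mainly through their seed, bases 2 to 8. D7Ertd143e is the precursor of most of the miR-290 family, the main microRNAs of mouse embryonic stem cells. Its signal was 2178 in Flk1+ MPCs and 269 in sfPCBs, with 23.2 in PCBs and 22.5 in M+CMs, a log2 difference of 6.60 ± 0.73 (software error) between the first and the last as the mean of 2 probes that disagreed in size. The first gave 849.9, 97.4, 3.3 and 3.3 and was not well above background in PCBs and M+CMs, and the second, brighter one gave 5580, 741.9, 162.1 and 153, all well above background, with a log2 range of 5.19. Both were highest in Flk1+ MPCs and lower in sfPCBs, with the lowest values in PCBs and M+CMs.

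Mir17hg, the host of the miR-17-92 cluster, which is known for driving proliferation, was bright on every array. It measured 19378 in Flk1+ MPCs and 6771 in sfPCBs, with 9485 in PCBs and 1252 in M+CMs, and M+CMs were 15.5-fold below Flk1+ MPCs (log2 3.95 ± 0.20). Both the miR-290 family and the miR-17-92 cluster hold microRNAs with related seeds, although miR-19a, miR-19b and miR-92a of the cluster have other seeds. Mature sequences of the family and the cluster are shown for comparison. They are from RefSeq on GRCm38.p6, 5′ to 3′, with the seed in capitals:
mmu-miR-291a-3p (chr7:3218968-3218989, plus strand): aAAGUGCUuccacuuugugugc
mmu-miR-294-3p (chr7:3220691-3220712, plus strand): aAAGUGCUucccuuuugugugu
mmu-miR-295-3p (chr7:3220815-3220837, plus strand): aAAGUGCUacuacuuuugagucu
mmu-miR-291b-3p (chr7:3219529-3219550, plus strand): aAAGUGCAuccauuuuguuugu
mmu-miR-17-5p (chr14:115043684-115043706, plus strand): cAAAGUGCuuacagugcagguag
mmu-miR-20a-5p (chr14:115044183-115044205, plus strand): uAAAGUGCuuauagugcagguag
mmu-miR-19a-3p (chr14:115044048-115044070, plus strand): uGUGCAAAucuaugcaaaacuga
mmu-miR-19b-3p (chr14:115044358-115044380, plus strand): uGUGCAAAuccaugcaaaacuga
mmu-miR-92a-3p (chr14:115044476-115044496, plus strand): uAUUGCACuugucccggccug
Of the 13 mature sequences listed inside D7Ertd143e, 3 share the seed AAGUGCU. The letters AAGUGC lie in the seeds of 4 of these 13 and of 2 of the 11 listed for the miR-17-92 cluster, miR-17-5p and miR-20a-5p. Among the sequences of that cluster only those of miR-92a fall inside the Mir17hg record that the array names, and the others lie just before it. The arrays measured the host transcripts and not the mature microRNAs.

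The host of a cardiac microRNA had its highest signal in M+CMs. Mir1a-1hg, from which the muscle microRNA miR-1 is cut, measured 5.0 in Flk1+ MPCs and 3.8 in sfPCBs, both not well above background, 47.5 in PCBs and 69.1 in M+CMs. Its signal in PCBs was at least 3.1-fold that in sfPCBs, and its signal in M+CMs at least 4.6-fold. RefSeq lists 1 mature sequence inside it here, the 5′ arm, with the seed in capitals:
mmu-miR-1a-1-5p (chr2:180389057-180389079, plus strand): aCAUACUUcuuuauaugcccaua
Mir124-2hg, which hosts the neuronal miR-124, measured 25.9 in Flk1+ MPCs and 93.8 in sfPCBs, with 16.9 in PCBs and 4.4 in M+CMs, with the last 2 not well above background, and its signal in sfPCBs was at least 5.6-fold that in PCBs. Of 9 microRNA hosts in a list drawn up for these RNAs, all detected, 4 were up by 2-fold or more and 3 down by as much when M+CMs were set against Flk1+ MPCs, beside 215 and 150 of the 850 detected noncoding names. D7Ertd143e was not in this list. Of those down, Mir124-2hg and Mir9-3hg were not well above background in M+CMs, and the bound for Mir124-2hg was 1.7-fold. Of those up, Mir1a-1hg and Mir99ahg were not well above background in Flk1+ MPCs.

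The widest range of all belonged to Mhrt (Myheart), a group of antisense transcripts from the locus of the cardiac myosin heavy chains that is known to bind the chromatin remodeller Brg1. Its signal was 21.9 in Flk1+ MPCs and 15.2 in sfPCBs, both not well above background, 700.6 in PCBs and 28613 in M+CMs. PCBs were at least 46.2-fold above sfPCBs, M+CMs were 40.8-fold above PCBs (log2 5.35 ± 0.20), and M+CMs were at least 1887-fold above sfPCBs. The gene it overlaps, Myh7, which encodes the slow β-myosin heavy chain, differed in shape. Myh7 measured 122.2 in Flk1+ MPCs and 525.5 in sfPCBs, with 235857 in PCBs and 228990 in M+CMs, so it was already as high in PCBs as in M+CMs. Myh6 measured 40.6, 43.5, 6157 and 112738 in the same order, a step at both PCBs and M+CMs like that of Mhrt.

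Gata5os, transcribed across from the cardiac and endodermal factor gene Gata5, measured 19.4 in Flk1+ MPCs, 13.6 in sfPCBs (not well above background), 51.7 in PCBs and 620.7 in M+CMs. Its signal in PCBs was at least 3.4-fold that in sfPCBs, and its signal in M+CMs at least 41-fold. Gata5 itself stayed between 695.1 and 1113 on the 4 arrays, with a log2 difference of -0.05 ± 0.20 between M+CMs and sfPCBs (-0.41 to -0.04 over all normalizations tried). Gata5 is also the nearest measured coding gene of Mir1a-1hg, so both noncoding names at this locus were highest in M+CMs, where Gata5 was lowest. Gata5 itself was highest in PCBs, at 1113, against 718.5 in sfPCBs.

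Mhrt and Gata5os belonged to 8 names that stood 2-fold or more above both Flk1+ MPCs and sfPCBs in PCBs, and 2-fold or more above PCBs in M+CMs (9.94% of all names with as wide a range). Gm16982 went from 3.5 and 15.4, not well above background, to 40.9 in PCBs and 200.1 in M+CMs. Hmga2-ps1 went from 175.1 and 114.3 to 532.1 and 3074, and 3110099E03Rik from 95.6 and 94.6 to 337 and 1029. The other 3 names, Gm10649, Gm13446 and 2900005J15Rik, were well above background in M+CMs alone, so that their step at PCBs lay below the detection limit. Mir1a-1hg was outside this group because PCBs and M+CMs were within 2-fold of each other.

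The start regions of 3 of these cardiac-high transcripts are shown because these names were highest on the same array. Each runs from 250 bases before to 50 bases after the RefSeq start on GRCm38.p6, 5′ to 3′ on the strand of the transcript. Capitals mark the letters searched for the muscle factor MEF2 (TAAAAATA, or TATTTTTA on the other strand), the only searched letters found in these 3 windows:
Mhrt (chr14:54968537-54968836, plus strand): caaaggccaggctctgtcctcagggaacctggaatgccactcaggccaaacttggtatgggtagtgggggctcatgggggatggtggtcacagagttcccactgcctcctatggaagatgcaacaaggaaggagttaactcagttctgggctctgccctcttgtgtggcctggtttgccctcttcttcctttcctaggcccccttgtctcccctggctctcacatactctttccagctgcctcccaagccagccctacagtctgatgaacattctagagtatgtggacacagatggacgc
Gata5os (chr2:180332607-180332906, plus strand): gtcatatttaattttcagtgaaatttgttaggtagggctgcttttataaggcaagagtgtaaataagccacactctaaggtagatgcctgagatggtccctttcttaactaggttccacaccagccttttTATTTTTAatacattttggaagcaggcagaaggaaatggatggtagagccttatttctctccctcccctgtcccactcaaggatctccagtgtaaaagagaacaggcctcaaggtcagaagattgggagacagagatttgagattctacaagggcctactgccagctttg
Mir1a-1hg (chr2:180385354-180385653, plus strand): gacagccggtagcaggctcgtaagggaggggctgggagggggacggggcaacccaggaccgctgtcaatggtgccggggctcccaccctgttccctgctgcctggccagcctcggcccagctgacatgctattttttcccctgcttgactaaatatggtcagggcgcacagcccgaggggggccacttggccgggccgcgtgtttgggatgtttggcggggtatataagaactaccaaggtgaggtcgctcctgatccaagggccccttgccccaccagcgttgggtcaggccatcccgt
The other letters searched, on both strands, were AGATAA for GATA factors, TNAAGTG for NKX2-5 and TCACACC for T-box factors. Promoters were listed for 62 of the 100 names. The MEF2 letters were in 2 of these (3.2%) and in 2.7% of all 27025 promoters of the same length, the GATA letters in 6.5% and 11.4%, the NKX2-5 letters in 6 of the 62 (9.7%) and 3101 of the 27025, and the T-box letters in 6.5% and 4%. A match is a description of the letters and not a binding site.

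**Figure D2:**
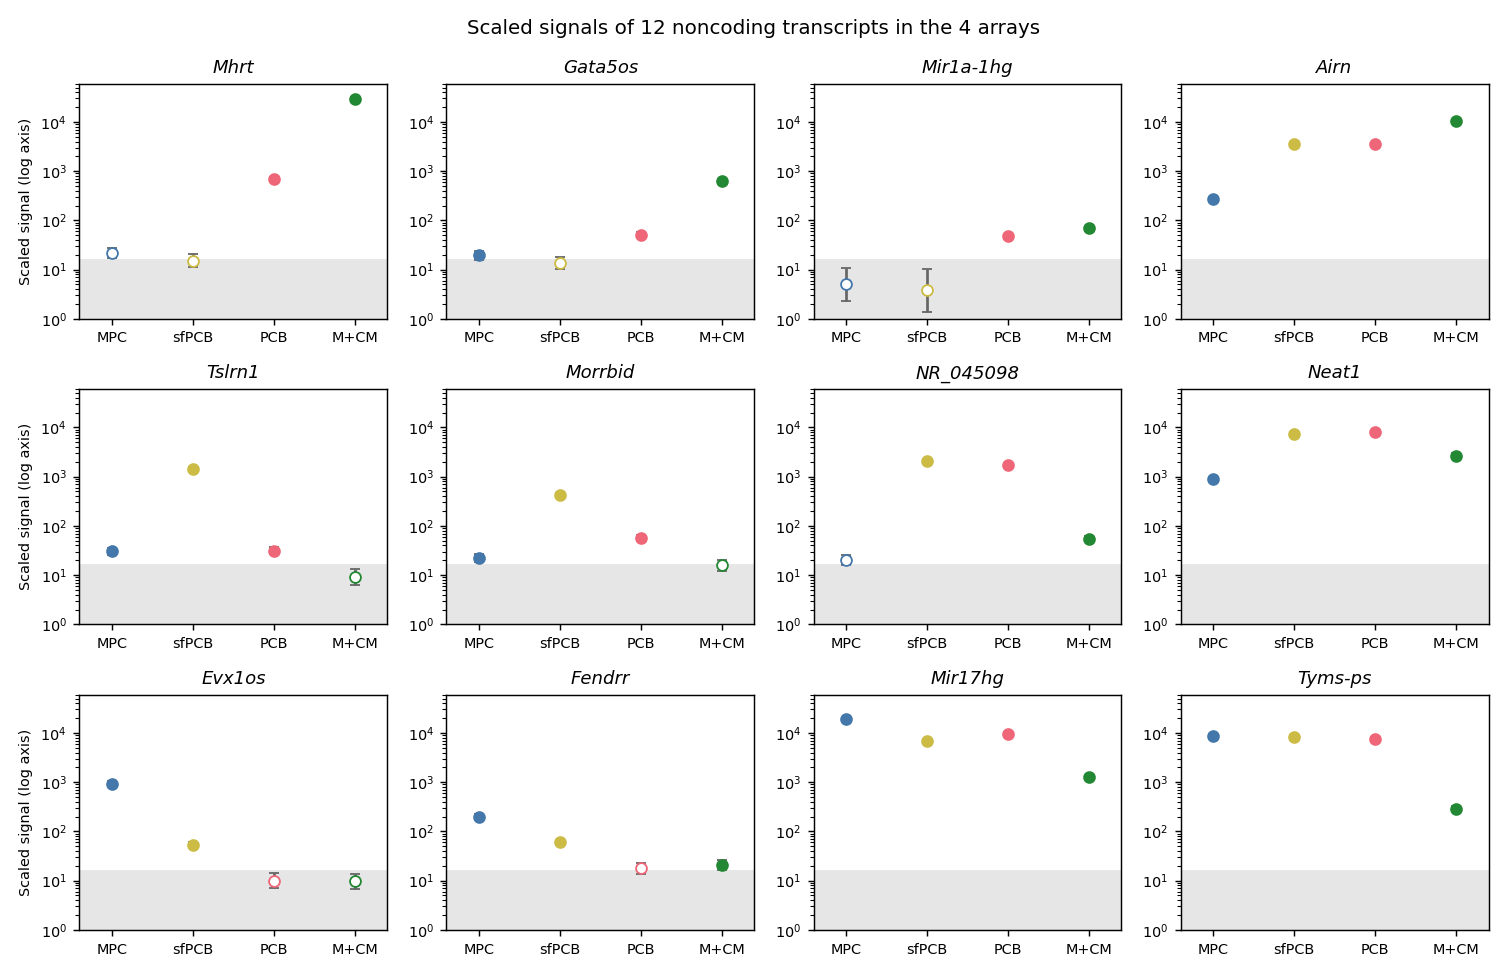
Scaled signal (log axis) of 12 noncoding transcripts in Flk1+ MPCs (MPC), sfPCBs, PCBs and M+CMs, 1 array each, with the software error of the spot as bars and open circles for signals not well above background. The grey band reaches the highest of the 4 detection limits (15.9), and Mhrt runs from 15.2 in sfPCBs to 28613 in M+CMs.

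Some of the other names highest in M+CMs overlap coding genes known from heart muscle or its metabolism. 4930506C21Rik overlaps Mpc1, which encodes a subunit of the mitochondrial pyruvate carrier. It measured 76.8 in Flk1+ MPCs and 35.9 in sfPCBs, with 61.4 in PCBs and 346.3 in M+CMs, and Mpc1 measured 3330, 2697, 3445 and 38669. Gm4814 overlaps Cmya5, a gene of striated muscle, and measured 5.5 (not well above background), 32.4, 36.8 and 55.2, with Cmya5 at 48.9, 118.8, 257.1 and 1098. B130024G19Rik overlaps Nr2f2, which encodes the atrial and venous factor COUP-TFII. It measured 19.7, 73.0, 66.0 and 286.1, and Nr2f2 measured 43.4, 595.2, 756.6 and 5713. Each of these 3 noncoding names was highest on the same array as the gene it overlaps. 4933417O13Rik lies over the potassium channel gene Kcnq1 and was well above background in M+CMs alone, at 35.3. 2310065F04Rik, also called linc-Myh and listed nearest to the embryonic myosin gene Myh3, measured 115.5, 98.5, 95.6 and 1172, 12.3-fold higher in M+CMs than in PCBs (log2 3.62 ± 0.21), whereas Myh3 measured 34.1, 29.9 and 20.2 in the first 3 arrays and was not well above background in M+CMs.

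Of the 48 names highest in M+CMs, 15 were well above background on that array alone, and 30 were not well above background on their lowest array. Ctcflos, across from Ctcfl, a relative of the insulator factor CTCF, measured 4.2, 3.9 and 4.1 in the first 3 arrays, none well above background, and 190.6 in M+CMs, at least 12.6-fold above sfPCBs. A730056A06Rik, which overlaps the guidance gene Rgma, measured 11.1, 6.2 and 15.0 in those arrays, again not well above background, and 314.2 in M+CMs, at least 20.8-fold above sfPCBs. Both were thus measured at day 10.5 alone.

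Airn, the imprinted antisense RNA that silences Igf2r in cis on the paternal chromosome, was well above background on all arrays. Its signal was 272.3 in Flk1+ MPCs and 3519 in sfPCBs, with 3556 in PCBs and 10284 in M+CMs, a 37.8-fold difference between the ends (log2 5.24 ± 0.15). Its 2 probes gave the same order of Flk1+ MPCs below both day 5.5 arrays and M+CMs above them, with 67.0 against 3659 and 1107 against 28905 for Flk1+ MPCs and M+CMs. They disagreed in size by more than the software error, and the brighter probe alone had a log2 range of 4.71. Igf2r, the receptor that clears insulin-like growth factor 2, measured 2698, 921.6, 831.1 and 727.3 in the same order and was lower in M+CMs by a log2 difference of -1.89 ± 0.06. Airn was 1 of 7 imprinted noncoding records detected from a list drawn up for them. Of the 7, 3 had M+CMs above Flk1+ MPCs by 2-fold or more (Airn, Kcnq1ot1 and Peg13) and 1 had them below by as much (Mirg), beside 215 above and 150 below among the 850 detected noncoding names, and no other than Airn had a range wide enough to be among the 100.

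The names highest in Flk1+ MPCs included several known from the primitive streak, mesoderm or pluripotent cells. Evx1os lies across from Evx1, a homeobox gene of the primitive streak. It measured 936.8 in Flk1+ MPCs and 53.7 in sfPCBs, with 10 in PCBs and 9.7 in M+CMs (both not well above background), and Flk1+ MPCs were at least 60.8-fold above M+CMs. Evx1 measured 44790.3, 1999.5, 13.1 and 5.3 in the same order, with PCBs and M+CMs again not well above background. Between the 2 day 5.5 arrays, Evx1os was at least 3.5-fold higher in sfPCBs. Fendrr, a long noncoding RNA of lateral mesoderm that is needed for heart and body wall development in the mouse, measured 199.1, 59.7, 17.8 (not well above background) and 20.7, and Flk1+ MPCs were at least 11.2-fold above PCBs. Its neighbour Foxf1, a forkhead gene of the same tissue, measured 2776, 1261, 193.1 and 149.9. Both long noncoding RNAs and both coding genes had the order Flk1+ MPCs, then sfPCBs, then the cardiac arrays.

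4933429K18Rik is listed nearest to Fgf8, which encodes a growth factor of the streak. It measured 172.2 in Flk1+ MPCs and was not well above background on the other 3 arrays, with Fgf8 at 1741, 146.3, 394.7 and 69.3. Pou5f1-rs4 is a related sequence of the pluripotency gene Pou5f1 (Oct4) and measured 336 in Flk1+ MPCs, 21.5 in sfPCBs, and 7.7 and 4.2 in PCBs and M+CMs (not well above background). Pou5f1 measured 896.7, 71.6, 12.9 (not well above background) and 18.0, and a probe of such a copy may also bind the message of the gene it resembles. Platr10 and Platr14, named as pluripotency-associated transcripts, measured 81.9 and 33.8 in Flk1+ MPCs and were not well above background on the other 3 arrays. Gm2694, beside the neuronal gene Cbln1, measured 1290.3, 766.7, 108 and 204.5, and Cbln1 measured 1661, 2189, 59.8 and 62.8. In Gm2694 the split was between the CsAYTE-free day 5.5 array and PCBs, which were 7.1-fold apart (log2 -2.83 ± 0.21). The fixed list of pluripotency RNAs held 5 detected names, of which 2 had M+CMs below Flk1+ MPCs by 2-fold or more and 1 had them above by as much, where 150 and 215 of all 850 did.

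Of the 100, 20 had M+CMs below each other array by 2-fold or more (23.6% of all names with as wide a range), and the levels on the other 3 arrays differed widely within this set. Tyms-ps, a pseudogene of thymidylate synthase, the enzyme that makes the DNA base thymidine, measured 8502 in Flk1+ MPCs and 8128 in sfPCBs, with 7376 in PCBs and 290.6 in M+CMs, a 29.3-fold difference between the ends (log2 4.87 ± 0.20). Tyms measured 430.7, 519.8, 569.9 and 148.9. Zfp783 measured 659.8, 562.8, 611.2 and 26.5, and 2810408I11Rik measured 3111, 2693, 2812 and 292.8. Tyms-ps, Zfp783 and 2810408I11Rik were close to level over Flk1+ MPCs, sfPCBs and PCBs. Rnu3b1, a copy of the U3 RNA that takes part in processing ribosomal RNA, measured 10660.4, 5344, 6634 and 1125. 1110038B12Rik was the brightest of the 100 in Flk1+ MPCs and measured 68113, 33028, 32551 and 6934, so both were also higher in Flk1+ MPCs than at day 5.5. All 5 of these names were well above background on every array, so their differences are measured on both sides.

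For 19 names both day 5.5 arrays lay 2-fold or more above Flk1+ MPCs and M+CMs (17.7% of all names with as wide a range). The unmatched name NR_045098 had the widest range among them, with 20 in Flk1+ MPCs (not well above background), 2094 in sfPCBs and 1755 in PCBs, with 55.4 in M+CMs, and sfPCBs were at least 104.6-fold above Flk1+ MPCs. NR_033577, also unmatched, measured 158.7 in sfPCBs and 155.8 in PCBs and was not well above background on the other arrays. 3300005D01Rik measured 51.5, 1483, 1285 and 60.1, and D5Ertd605e measured 89.7, 818.6, 736.9 and 34.5. All 4 of these had sfPCBs and PCBs close together. Neat1, the RNA scaffold of paraspeckles, measured 886.8, 7287, 8110.1 and 2679, and PCBs were 9.1-fold above Flk1+ MPCs (log2 3.19 ± 0.20). Dlx4os measured 12.6, 30.5, 48.9 and 3.5, with the first and the last not well above background, and the homeobox gene across from it, Dlx4, measured 80.5, 1736, 1547 and 88.1. H2-K2, a class I histocompatibility pseudogene, measured 2054, 7879, 15361 and 1483, and its coding relative H2-K1 had the same order with 5806, 13968, 24129 and 4981. 2610028E06Rik measured 60.8, 215.5, 228 and 3.4 (not well above background) and 1700048O20Rik 21.3, 48.6, 82.6 and 3.3 (not well above background), so both were well above background on every array but that of M+CMs. BC039966 measured 183.7 in sfPCBs and 233 in PCBs and was not well above background elsewhere, and AW011738 measured 10.5, 149.8, 201.2 and 9.6 as the mean of 2 probes, of which 1 was not well above background in Flk1+ MPCs and M+CMs. All of the names given here were less than 2-fold apart between sfPCBs and PCBs.

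Of the noncoding records of 2 coding genes, that of Runx2 was among these 19 and that of Bmp1 was not. The Runx2 record, from the gene of the master factor of bone formation, measured 10.3 in Flk1+ MPCs and 182.6 in sfPCBs, with 182.1 in PCBs and 8.5 in M+CMs, with the first and the last not well above background. The coding record of Runx2 measured 24.6, 56.8, 80.1 and 16.6. The noncoding Bmp1 record, from the gene of a protease that trims procollagen, measured 283.1, 3239, 1359.5 and 2351, and its coding record 2555, 6284, 3863 and 4493. Beside these names, the summed signal of 6 markers of the stromal feeder cells was 2981 in Flk1+ MPCs and 258958 in sfPCBs, with 137998 in PCBs and 19785 in M+CMs, with 3 of the 6 well above background in Flk1+ MPCs, all 6 in sfPCBs, 5 in PCBs and all 6 in M+CMs. The sum was mostly that of the collagen genes Col1a1 and Col1a2, the only ones of the 6 high in both day 5.5 arrays. Dcn measured 3794 in sfPCBs and 123.8 in PCBs, Lum measured 8782 in sfPCBs and 30.2 in PCBs, and Postn measured 12884 in sfPCBs and was not well above background in PCBs. Thy1 ran the other way, with 1065 in Flk1+ MPCs and 102.4, 147.2 and 74.2 on the later arrays. The part of these cells in the noncoding signals was not tested.

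**Figure D3:**
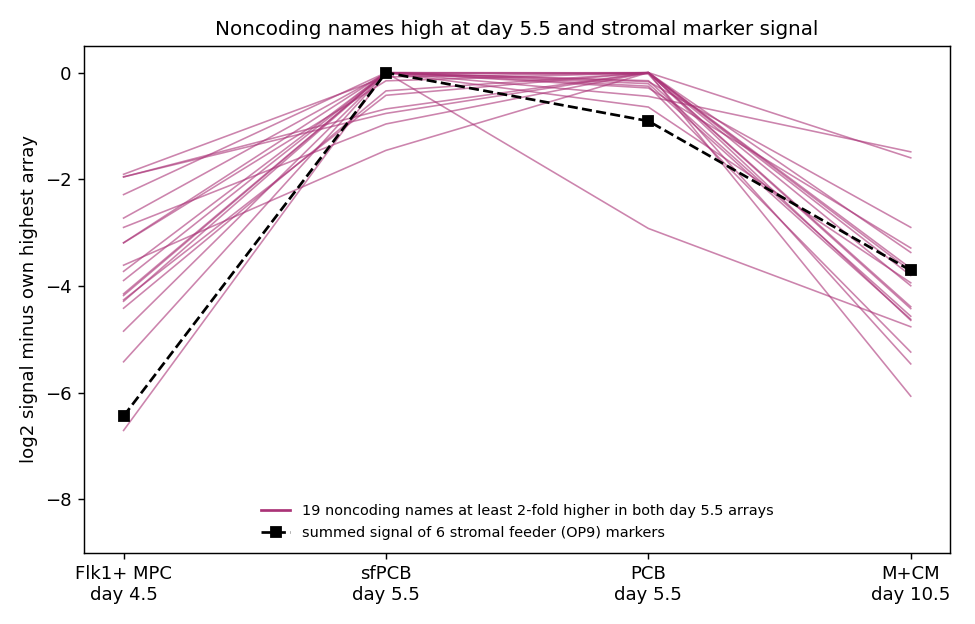
Log2 signal of each of 19 noncoding names at least 2-fold higher in both day 5.5 arrays than on the other arrays, minus the highest array of that name (thin lines), and the same for the summed signal of 6 stromal feeder markers (squares). Both are highest at day 5.5, and the marker sum, mostly Col1a1 and Col1a2, was 258958 in sfPCBs and 137998 in PCBs.

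Between the 2 day 5.5 arrays, which differ by CsAYTE, 78 of the 100 were well above background in 1 or both. Of these 78, 11 were higher by 2-fold or more in PCBs (6.14% of all names detected in either array) and 19 were lower by as much (7.46%). Over all 100, including names detected in neither array, 56 were within 2-fold of each other (54.6% of all names with as wide a range). Of those lower in PCBs, 10 were well above background on both arrays, and of those higher, 4 were. Tslrn1, a transcript named for its expression in testis, had the largest difference among those lower in PCBs. It measured 30.3 in Flk1+ MPCs and 1416 in sfPCBs, with 31.5 in PCBs and 9.1 in M+CMs (not well above background), and was 45-fold lower in PCBs than in sfPCBs (log2 -5.49 ± 0.26). Morrbid, known from short-lived myeloid cells as a regulator of the cell death gene Bcl2l11, measured 22.0, 429.8, 56.7 and 15.8, the last not well above background, and was 7.6-fold lower in PCBs. Bcl2l11 stayed between 329.6 and 373.4 (a log2 difference of -0.12 between sfPCBs and M+CMs, and -0.12 to 0.25 over all normalizations tried). 5033406O09Rik measured 36.7, 180.4, 38.5 and 3.1 (not well above background), 4.7-fold lower in PCBs than in sfPCBs (log2 -2.23 ± 0.24). Speer4cos measured 3.5, 150.6, 5.1 and 8.4 and was well above background in sfPCBs alone, at least 9.7-fold above PCBs. Beside these sfPCB-high names, the summed signal of 3 endothelial markers was 283.5, 2861, 227.9 and 405.3. That of 3 blood markers was 236, 3295, 3044 and 105.2, so it was close to level between sfPCBs and PCBs. The stromal feeder markers Dcn, Lum and Postn measured 3794, 8782 and 12884 in sfPCBs and 123.8, 30.2 and 13.2 in PCBs, the last not well above background. Of the other stromal markers, Col1a1 and Col1a2 were also higher in sfPCBs, and Thy1 was lower. The part of all these cells in the noncoding signals was not tested.

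Of the names higher in PCBs than in sfPCBs, Mhrt, Hmga2-ps1, 3110099E03Rik, Gata5os, Gm16982 and Mir1a-1hg were also high in M+CMs. Gm9895 measured 47.6 in Flk1+ MPCs and 103.5 in sfPCBs, with 599.4 in PCBs and 309.9 in M+CMs, and was 5.8-fold higher in PCBs than in sfPCBs (log2 2.53 ± 0.21). Only 2 names stood at least 2-fold above all other arrays in PCBs. Pisd-ps2, a pseudogene of the mitochondrial phosphatidylserine decarboxylase, measured 263.4, 1171, 3219 and 244, and 4930524C18Rik measured 8.5, 5.0, 111.2 and 16.1 and was well above background in PCBs alone. The summed signal of 5 cardiomyocyte markers was 7248 in Flk1+ MPCs and 4484 in sfPCBs, with 281515 in PCBs and 970966 in M+CMs.

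From Flk1+ MPCs to PCBs, 45 of the 100 differed upward by 2-fold or more (12.7% of all names detected in either array) and 15 downward (12.1%). From Flk1+ MPCs to sfPCBs the counts were 43 (13%) and 16 (12.7%). From PCBs to M+CMs they were 46 (20.4%) and 34 (15.2%), and from Flk1+ MPCs to M+CMs 54 (22%) and 29 (21.4%). Those well above background on both arrays numbered 26 and 6, 25 and 9, 27 and 19, and 25 and 15, in the same order. These comparisons share arrays, and the wide ranges that chose the names also fix that many of them pass. At 30-fold, 3 names were higher in PCBs than in Flk1+ MPCs (1.33% of all names) and 4 lower (0.449%), and 2 were higher in M+CMs than in PCBs (0.602%) and 3 lower (0.77%). Of these, 0, 1, 1 and 1 were well above background on both arrays, in the same order. The lower bounds fell short of 30-fold for NR_033577 (9.8 and 10.1), Pou5f1-rs4 (21.6), 4933429K18Rik (11.1), Ctcflos (12.3) and 2610028E06Rik (14.8).

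What the rule did not use was the level of the coding genes beside the noncoding names. A detected nearest coding gene was available for 92 of the 100, and it had its highest signal on the same array as the noncoding name for 35 of them (38.0%), against 38.6% of 658 other detected noncoding names. Where the coding gene overlapped the noncoding one, the count was 24 of 42 (57.1%), against 41.3% of 242. Between the highest and the lowest array of the noncoding name, the overlapping gene differed at least 2-fold the same way for 19 of the 42 (45.2%, against 25.2% of the others), at least 2-fold the opposite way for 2 (4.8% against 12%), and by less than 2-fold for 21. Wide-ranging names have larger differences between their ends by choice, genes on 1 array share its errors, and no test was made of these shares. The 2 opposite pairs were Airn with Igf2r and 4932441J04Rik with Pcdh7, a protocadherin gene. 4932441J04Rik measured 11.4 (not well above background), 19.8, 27.5 and 142.7, and Pcdh7 measured 1074, 1134, 459.7 and 330.2. A830052D11Rik, which overlaps Bin1, a membrane-bending protein gene, went the same way as its partner, with 229.3, 388.3, 209.9 and 7.7 (not well above background) beside 12562, 18610, 8803 and 674.1.

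Antisense names and their named sense partners did not all differ together. In the gene positions used, Ctcflos, Foxd2os, Med9os and Zfp652os did not overlap the gene they are named for. Evx1os had its partner's order of arrays. Dlx4os and Dlx4 both had the day 5.5 arrays above the others, with sfPCBs and PCBs less than 2-fold apart in each. Foxd2os measured 24.6 in Flk1+ MPCs and 161.3 in sfPCBs, with 163 in PCBs and 12.8 in M+CMs (not well above background), whereas Foxd2 stayed between 38.0 and 69.3, with a log2 difference of -0.58 between PCBs and M+CMs (-0.58 to -0.16 over all normalizations tried). Med9os measured 45.8, 87.7, 156.7 and 451.1, and Med9, a Mediator subunit gene, stayed between 5152 and 6029, with M+CMs and Flk1+ MPCs -0.03 to 0.19 apart on the log2 scale over all normalizations tried. Chn1os3, Zfp652os and Tbc1d22bos differed at least 3.8-fold, 5.8-fold and 2.2-fold between their highest and lowest arrays. Between the same arrays the log2 difference was 0.12 and 0.25 for 2 records of Chn1, -0.52 for Zfp652 and 0.23 for Tbc1d22b. Ctcfl differed the same way as Ctcflos, with a log2 difference of 2.61 ± 0.31 between M+CMs and sfPCBs. Among the pseudogenes, Hmga2-ps1 and Hmga2 were opposite. Hmga2-ps1 was 26.9-fold higher in M+CMs than in sfPCBs (log2 4.75 ± 0.21), and Hmga2, which encodes a chromatin protein of embryonic cells, measured 20501 in Flk1+ MPCs and 13754 in sfPCBs, with 9202 in PCBs and 149.6 in M+CMs, a log2 difference of -6.52 ± 0.15 between the same arrays. Nlrp5-ps and Nlrp5 were both highest in M+CMs, at 101.8 and 1305.

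**Figure D4:**
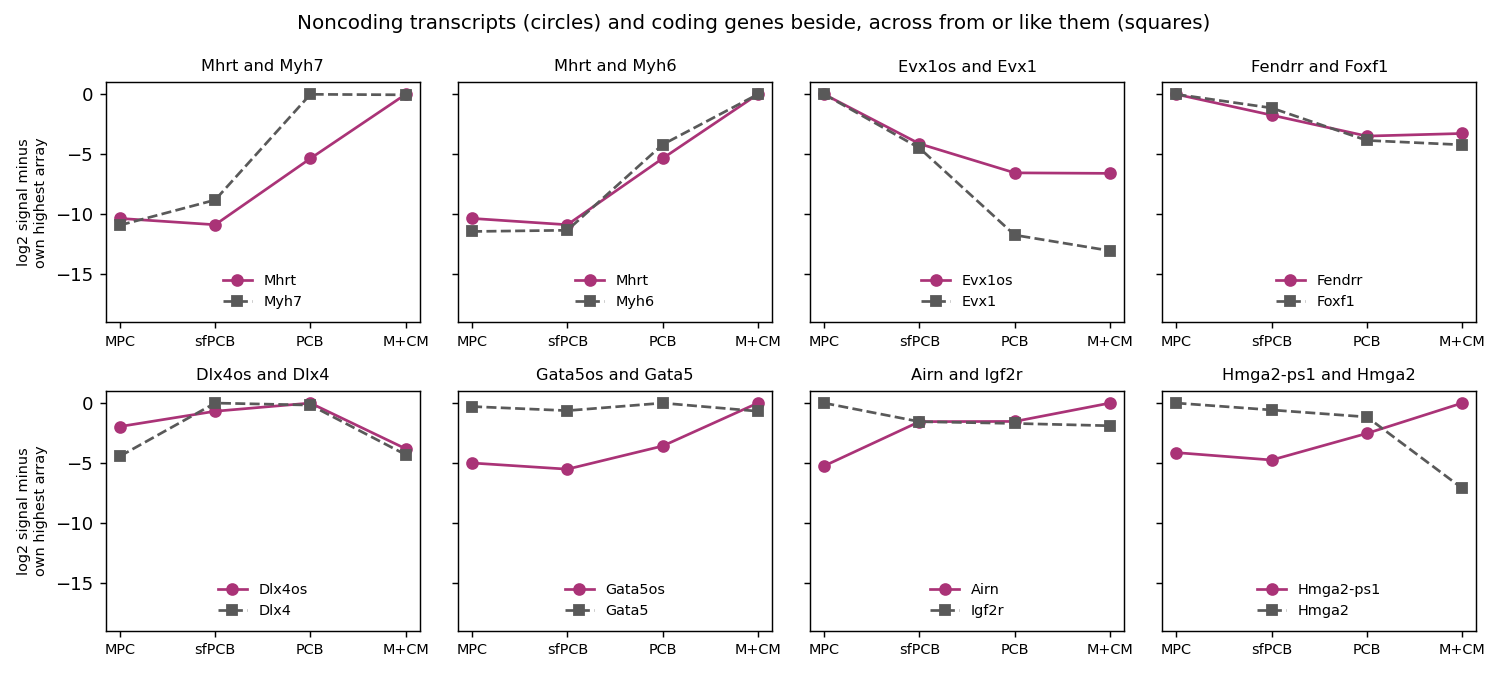
Log2 signal minus the highest array of the same name for noncoding transcripts (circles) and a coding gene that overlaps, neighbours or resembles them (squares), in Flk1+ MPCs (MPC), sfPCBs, PCBs and M+CMs. Evx1os, Fendrr and their partners are highest in Flk1+ MPCs, Dlx4os and Dlx4 are highest at day 5.5, Gata5 stays between 695.1 and 1113 while Gata5os differs, and Airn and Hmga2-ps1 run opposite to Igf2r and Hmga2.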

How the data were processed

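The authors deposited spot intensities of 4 one-colour arrays as written by Feature Extraction 11.5.1.1, whose processed intensity is already background-subtracted but not normalized between arrays, with the software's error and quality flags per spot. They also deposited a value table on the log2 scale, which equalled log2 of the processed intensity without scaling. Per the file headers, the design is annotated on mouse build mm9, and spots carry identifiers without symbols. Of 43020 non-control spots per array, between 87 and 144 were flagged and left out, and between 73.3% and 76.2% of the rest were well above background. Each array was scaled to the mean 75th percentile (2198.4), and log2 signals were averaged per identifier with no offset. Symbols, neighbouring genes and sequences came from RefSeq tables on GRCm38.p6, matched by accession. Neighbours are the nearest coding gene with a measured identifier, and no position was converted between builds.

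Groups came from the sample titles. With 1 array per population no test was run, and the number of arrays limits the precision. Errors of log2 differences combine the software errors of both arrays and cover spots only. The 100 members, the gene and marker lists and the motifs were chosen with earlier results of these data known. The named transcripts were the 6 with the widest range for each highest array, those in the lists of known noncoding RNAs, and the 3 on each side of the limit. Other transcripts named in the text were chosen after their values were seen. Probe sequences were not used, so binding by near-identical copies such as pseudogenes, and the strand each probe reads, were not checked.

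The alternatives were no scaling, quantile normalization, normexp (offset 50) with quantile normalization, an offset of 50, saturated spots left out, the brightest probe of a name, the deposited log2 values, detection on all 4 arrays, no detection filter and undetected signals raised to the detection limit. The choice of names was tried on simulated data in which dim signals were raised and every name counted as detected. That trial therefore cannot show how the choice behaves for dim or undetected signals. Python 3.11.15 with numpy 2.4.6, pandas 2.3.3 and matplotlib 3.10.9 served for all steps except quantile normalization and normexp, which were run with limma 3.58.1 in R 4.3.3.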

Additional observations from a re-analysis of the deposited data

How the results depend on the processing

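No paired analysis was possible because each population had 1 array, and no replicate could be left out. The counts by highest array stayed within 1.5 times under every alternative that kept all 100 names. Adding an offset of 50 lowered the median log2 range to 2.14 and the counts at 2-fold to 27 higher in PCBs than in Flk1+ MPCs, and 6 higher and 12 lower in PCBs than in sfPCBs. With normexp and quantile normalization the median range was 1.83, and the counts were 22 higher and 8 lower in PCBs than in Flk1+ MPCs, 6 higher and 10 lower in PCBs than in sfPCBs, and 28 higher in M+CMs than in PCBs. Both alternatives add to the dim signals. When the 100 were chosen again, 57 were shared with an offset of 50, 52 with normexp, 71 with undetected signals raised to the detection limit, and between 92 and 100 under the others. Over the 39 names detected on all 4 arrays, 18 were highest in M+CMs, 10 in Flk1+ MPCs, 6 in sfPCBs and 5 in PCBs. At 2-fold, PCBs exceeded Flk1+ MPCs for 21 and fell below them for 6, exceeded sfPCBs for 4 and fell below them for 7, and M+CMs exceeded PCBs for 17 and fell below them for 17. Among 33 named transcripts no difference between the highest and the lowest array reversed under any alternative that was run for it, and 67 of 239 values moved by more than their software error, all of these toward smaller differences. No spot was saturated, so leaving out saturated spots changed nothing. The median over all detected names differed from 0 by up to 0.19 on the log2 scale, as -0.19 between PCBs and Flk1+ MPCs.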

Other observations

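Among the known noncoding RNAs outside the 100, the listed hosts of small nucleolar RNAs, which guide the modification of ribosomal RNA, were nearly all lower in M+CMs. Of 12 measured, all well above background on every array, 11 had M+CMs below Flk1+ MPCs by 2-fold or more and 0 had them above by as much, beside 150 below and 215 above among the 850 detected noncoding names, with a median log2 difference of -1.9, against 0.13 over the 850. Snhg1 measured 11152 in Flk1+ MPCs and 4723 in sfPCBs, with 4387 in PCBs and 1934 in M+CMs, and Snhg12 measured 14867, 6276, 8768 and 3275. Snhg18 was the exception, with 1106, 3728, 1794 and 768.3. None of these 12 had a range wide enough to be among the 100. The list held 20 symbols and was drawn up with earlier results of these data known. Hosts that carry other symbols, among the 100 or outside, were not looked for.

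Other known names were mixed. Pvt1, beside the growth gene Myc, measured 1751, 982.1, 649.2 and 206.5, and Malat1, an RNA of nuclear speckles, measured 10770.1, 12815, 16452 and 31503. The host Mir99ahg was not well above background in Flk1+ MPCs and sfPCBs and measured 25 in PCBs and 58.8 in M+CMs. Norad measured between 1339.5 and 1788 on the 4 arrays.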
